A study of Mus musculus with 56 samples.

Results

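The 9 genes described here were chosen as genes of the 2 layers of the epithelium that lines the male reproductive tract. Trp63, Krt5, Krt14, Krt15 and Itga6 were listed for basal cells, and Krt7, Krt8, Krt18 and Krt19 for luminal cells. Itga6 and Krt7 did not keep to this division in these data. Over the means of the ducts, Itga6 had a Pearson correlation of 0.054 with Trp63, and Krt7 one of 0.960 with Krt14 and 0.085 with Krt8. They were found by gene symbol among the 53379 genes of the count table, whose rows carry Ensembl identifiers, and all 9 were present. Total RNA had been sequenced from the testis, the efferent ductules, 4 parts of the epididymis (initial segment, caput, corpus and cauda) and the vas deferens of C57BL/6 male mice at 3 and 21 months of age. With 4 mice per age this made 14 groups of 4 libraries, 56 libraries in all, and no allele or treatment beyond strain and age is given for any of them. The study's methods state that the organs of both sides of a mouse were dissected and that all 7 regions were cut from the same mice, so libraries of different regions were not made from separate animals.

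Keratins are the intermediate filament proteins of epithelia, and a filament pairs a type II chain with a type I chain. In basal cells the type II chain Krt5 pairs with the type I chains Krt14 and Krt15, whereas luminal cells pair the type II chains Krt8 and Krt7 with the type I chains Krt18 and Krt19. Trp63 encodes p63, a transcription factor of the p53 family that basal cells of stratified and pseudostratified epithelia need, and Itga6 encodes the integrin alpha chain of the hemidesmosome, which fastens basal cells to the basement membrane. The epididymis and vas deferens have a pseudostratified epithelium in which basal cells lie under tall principal cells. The efferent ductules, which carry sperm from the testis to the epididymis, have a single layer of ciliated and absorptive cells, and the testis holds germ cells and Sertoli cells.

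All positions are on GRCm38 with the gene bounds of GENCODE M21, and all 9 members are protein-coding genes. Trp63 (ENSMUSG00000022510) spans chr16:25683763-25892102 on the plus strand and Itga6 (ENSMUSG00000027111) spans chr2:71745616-71858416 on the plus strand. The type I keratin genes of chromosome 11 lie close together on the minus strand, Krt15 (ENSMUSG00000054146) at chr11:100131758-100135928, Krt19 (ENSMUSG00000020911) at chr11:100140810-100148665 and Krt14 (ENSMUSG00000045545) at chr11:100203162-100207548. Only 4.88 kb separate Krt15 from Krt19. On chromosome 15 lie Krt7 (ENSMUSG00000023039, chr15:101411043-101430313, plus strand), Krt5 (ENSMUSG00000061527, chr15:101707070-101712898, minus strand), Krt8 (ENSMUSG00000049382, chr15:101996698-102004482, minus strand) and Krt18 (ENSMUSG00000023043, chr15:102028180-102032027, plus strand). Krt8 and Krt18, the partners of luminal filaments, are read away from each other with 23.7 kb between them. Exons of Krt5, Krt7 and Krt8 overlap genes on the other strand (Gm44323 over 129 bases, Gm671 over 77 bases and Gm36026 over 101 bases), and reads from such stretches can be told apart only if the counting used strand, which is not given in the sources used here.

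RefSeq promoter entries (GRCm38.p6, 250 bases before the start) matched 5 of the 9 members, namely Krt5, Krt14, Krt7, Krt8 and Krt18. The sequences of Krt5 and Krt18 are shown because Krt5 and Krt18 carry the basal and the luminal pattern described below and their windows held different motifs. The Krt5 window lies at chr15:101712906-101713155 on the minus strand, with a match to the 10-base p53 family motif in capitals at positions -95 to -86 from the RefSeq start. Of the Krt18 window only the 214 bases outside the GENCODE gene are shown, chr15:102027966-102028179 on the plus strand, with a match to the AP-2 motif in capitals at positions -83 to -75.
Krt5: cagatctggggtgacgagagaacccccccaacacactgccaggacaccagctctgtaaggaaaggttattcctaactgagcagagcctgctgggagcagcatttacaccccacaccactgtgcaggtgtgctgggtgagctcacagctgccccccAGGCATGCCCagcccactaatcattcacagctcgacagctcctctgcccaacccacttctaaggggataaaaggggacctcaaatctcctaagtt
Krt18: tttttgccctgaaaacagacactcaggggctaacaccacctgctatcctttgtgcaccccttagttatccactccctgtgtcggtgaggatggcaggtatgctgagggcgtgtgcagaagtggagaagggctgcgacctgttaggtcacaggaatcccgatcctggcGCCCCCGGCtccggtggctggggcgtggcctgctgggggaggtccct
Both strands were searched for TATAAA, the GC box GGGCGG, the AP-1 motif TGANTCA, the AP-2 motif GCCNNNGGC and the p53 family motif, by exact letters. Of 32851 RefSeq promoter windows of this length, 12.4% held TATAAA, 32.7% the GC box, 6.75% AP-1, 13.7% AP-2 and 7.13% the p53 family motif. The Krt7 window held 4 GC boxes and 2 AP-2 matches, one of which overlapped a GC box, and the Krt8 and Krt14 windows held none of these letters. The RefSeq starts of Krt14 and Krt7 lie 1518 and 1360 bases inside the GENCODE gene, so those 2 windows are not upstream of the gene as GENCODE draws it.

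Libraries held between 11125279 and 20561967 counts (median 16384049). The single gene Gm42418, which shares sequence with ribosomal RNA, took 1.27% to 26.8% of counts in 54 libraries, 36.03% in 21-month-old corpus replicate 3 and 49.7% in 3-month-old caput replicate 2. Levels are given as CPM, counts relative to the TMM-scaled library size over the 56 libraries, and as CPM per kb of exonic sequence where different genes are compared. Age was fitted with TMM scaling within a region, so a fitted fold change with age can depart from the printed CPM means, by 0.14 on the log2 scale in the initial segment (fit minus CPM) and by -0.0615 to 0.0763 in the other regions. With the scaling of the fits, Krt15 in the initial segment and Krt5 in the caput were the pairs of member and region whose overlap between ages changed. Several libraries differed from the rest of their group in marker genes of other cells, and 4 of them, picked after their values were seen and by no fixed criterion, were left out in alternative fits. In the efferent ductules of 21-month-old mice, 12 listed principal cell markers of the epididymis summed to 1901 and 811 CPM in replicates 2 and 3, against 4.83 and 12.7 CPM in replicates 1 and 4 and 11.3 to 34.6 CPM in the 4 libraries of 3-month-old mice. In the cauda, 3-month-old replicate 3 held 3597 CPM of macrophage and 9383 CPM of fibroblast markers, against 439 to 470.2 and 2284 to 2541 CPM in the others of its group, and 21-month-old replicate 2 held 36217 CPM of principal cell markers against 14977 to 19214 CPM. Beside these, replicate 1 of the 21-month-old initial segment held 251 CPM of ciliated cell markers against 51.2 to 115 CPM, and replicate 3 of the 3-month-old corpus held 3140 CPM of fibroblast markers against 1552 to 1686 CPM. These 2 were left out only singly, and the vas deferens is taken up with the age results.

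Trp63, Krt5, Krt14 and Krt15 were absent or near absent in the efferent ductules and high in the initial segment. In 3-month-old mice Trp63, the basal cell transcription factor, was read at 0.478, 0.949, 1.15 and 1.06 CPM in the efferent ductules and at 155, 162, 145 and 117 CPM in the initial segment. The ranges lay far apart, and the log2 difference was 7.34 (SE 0.21, adjusted p = 8.73e-22), from edgeR's quasi-likelihood test with Benjamini-Hochberg adjustment over all genes, as for every regional difference below. Krt5 gave 2, 1, 1 and 0 counts in the 4 efferent ductule libraries and 43.9, 44.8, 42.8 and 42.0 CPM in the initial segment. With 4 counts over the first group, its fitted log2 difference was 9.53 (SE 0.28, adjusted p = 2.48e-20). Krt14, the usual partner of Krt5, went from 1.01, 1.16, 0.383 and 0.253 CPM to 31.1, 35.2, 35.98 and 38.1 CPM, a log2 difference of 5.67 (SE 0.32, adjusted p = 1.83e-14). Krt15 had no count in any efferent ductule library and 179, 164, 204 and 178 counts in the initial segment, so its level there was at least 293-fold higher when the efferent ductules are set to 3 counts over the group (adjusted p = 2.03e-14). Itga6, the integrin, was instead well expressed on both sides of this boundary. It was read at 74.9, 74.4, 80.9 and 80.8 CPM in the efferent ductules and at 114, 140.0, 126 and 115 CPM in the initial segment, without overlap and with a log2 difference of 0.71 (SE 0.17, adjusted p = 0.00122). The Itga6 call was lost with libraries scaled by their size alone (0.32, adjusted p = 0.314), a scaling that moved the median of all genes at this step by -0.381 on the log2 scale.

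In bulk tissue fewer cells of a type and less RNA per cell cannot be told apart, and this holds for every level given here. The tables give 1 count per gene, so the isoforms of Trp63 with and without the transactivation domain were not separated. In the testis of 3-month-old mice Trp63 was read at 3.21, 1.74, 2.51 and 2.23 CPM, while Krt5 and Krt14 had 0 counts in all 4 libraries. With a floor of 3 counts over the group, 0 counts allow up to 0.0421 CPM, for counting error only. Trp63 was lower in the efferent ductules than in the testis, by a log2 difference of -1.36 (SE 0.24, adjusted p = 1.00e-05), and Krt15 had 7, 7, 3 and 20 counts in the testis against none in the efferent ductules, at least 13.4-fold higher (adjusted p = 8.05e-06). At 21 months neither of these 2 steps was called with all libraries (adjusted p = 0.495 and 0.383), but nearly all Trp63 and all Krt15 counts of the efferent ductules then lay in replicates 2 and 3, which held principal cell markers. Without these 2 libraries both genes were called lower than in the testis at 21 months (Trp63 -2.87, adjusted p = 5.16e-09, Krt15 adjusted p = 0.0222). Leaving out the libraries that hold their counts lowers both genes in advance, so these 2 calls do not repeat the result of 3 months.

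Beyond the initial segment the 4 basal transcripts followed different courses. Trp63 was read at 48.6, 63.6, 77.9 and 72.4 CPM in the caput, 37.4, 46.4, 51.3 and 61.6 CPM in the corpus and 37.4, 37.7, 36.4 and 37.5 CPM in the cauda. The log2 difference was -1.04 (SE 0.15, adjusted p = 1.56e-06) into the caput, without overlap of libraries. Into the corpus it was -0.51 (SE 0.15, adjusted p = 0.00721) and into the cauda -0.46 (SE 0.15, adjusted p = 0.0219), but these 2 calls were lost when any of 9 and 12 single libraries was left out (adjusted p = 0.0505 to 0.173 and 0.0581 to 0.250) and were not made at 21 months with all libraries. Without replicates 2 and 3 of the old efferent ductules they were made at 21 months too (-0.42, adjusted p = 0.00299, and -0.29, adjusted p = 0.0471). In order of level at 3 months, Trp63 ran initial segment, caput, corpus, vas deferens, cauda, testis and efferent ductules, and neither corpus and vas deferens (adjusted p = 0.511) nor vas deferens and cauda (adjusted p = 0.0882) differed past the threshold. Krt5 stayed within a narrower band through the epididymis, with means of 43.4 ± 1.23 CPM in the initial segment, 56.4 ± 6.23 CPM in the caput, 56.3 ± 12.9 CPM in the corpus and 52.8 ± 6.62 CPM in the cauda, and was at 26.0 ± 2.68 CPM in the vas deferens (SD, n = 4). The step into the vas deferens was called (-0.88, SE 0.14, adjusted p = 8.89e-06). The step into the caput (0.47, SE 0.14, adjusted p = 0.00971) lost its call without any of 8 single libraries (adjusted p = 0.0505 to 0.130).

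Krt14 ranged between means of 30.6 ± 5.11 CPM in the caput and 38.3 ± 12.4 CPM in the corpus (SD, n = 4), with no step inside the epididymis past the threshold (adjusted p from 0.244 to 0.822). In the vas deferens it was read at 4.39, 9.07, 5.64 and 7.15 CPM, below all cauda libraries (-2.09, SE 0.24, adjusted p = 7.86e-08). Per kb of exon, the ratio of Krt5 to Krt14 was 0.996 ± 0.105 for the initial segment, 1.38 ± 0.165 for the cauda and 3.33 ± 0.729 for the vas deferens (SD, n = 4). The vas deferens libraries (2.59 to 4.16) lay above all epididymal libraries of that age. Krt15, a type I keratin of basal cells, was most abundant in the distal epididymis. It was read at 12.8, 9.81, 12.3 and 11.5 CPM in the initial segment, 10.6, 10.7, 7.56 and 11.4 CPM in the caput, 28.1, 34.2, 22.1 and 29.9 CPM in the corpus and 30.9, 46.8, 21.6 and 36.7 CPM in the cauda. The rise from caput to corpus was 1.42 (SE 0.23, adjusted p = 2.02e-05) on the log2 scale, without overlap of libraries, while corpus and cauda did not differ past the threshold (adjusted p = 0.654). In the vas deferens it was at 4.20 ± 0.544 CPM (SD, n = 4), with a log2 difference from the cauda of -2.86 (SE 0.25, adjusted p = 3.24e-10).

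Itga6 had an alternating course among the ducts. Its means were 77.7 ± 3.59 CPM in the efferent ductules, 124 ± 12.2 CPM in the initial segment, 40.5 ± 10.2 CPM in the caput, 98.2 ± 8.66 CPM in the corpus, 45.3 ± 19.2 CPM in the cauda, then 48.1 ± 2.40 CPM in the vas deferens and 20.2 ± 1.37 CPM in the testis (SD, n = 4). It was lower in the caput than in the initial segment (-1.52, SE 0.18, adjusted p = 6.36e-08), higher in the corpus (1.19, SE 0.18, adjusted p = 3.05e-06) and lower again in the cauda (-1.16, SE 0.18, adjusted p = 6.96e-06), whereas cauda and vas deferens were not separated with all libraries (0.21, adjusted p = 0.389). In the cauda, replicate 3 of the 3-month-old mice was at 73.3 CPM against 29.9 to 40.5 CPM in the others. The same library held 228 CPM of endothelium markers against 129.7 to 135 CPM, besides the macrophage and fibroblast markers given above, and the part of these cells in its Itga6 level was not tested. Without this library and 21-month-old cauda replicate 2, Itga6 was called higher in the vas deferens than in the cauda at 3 months (0.59, adjusted p = 0.000160).

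**Figure D1:**
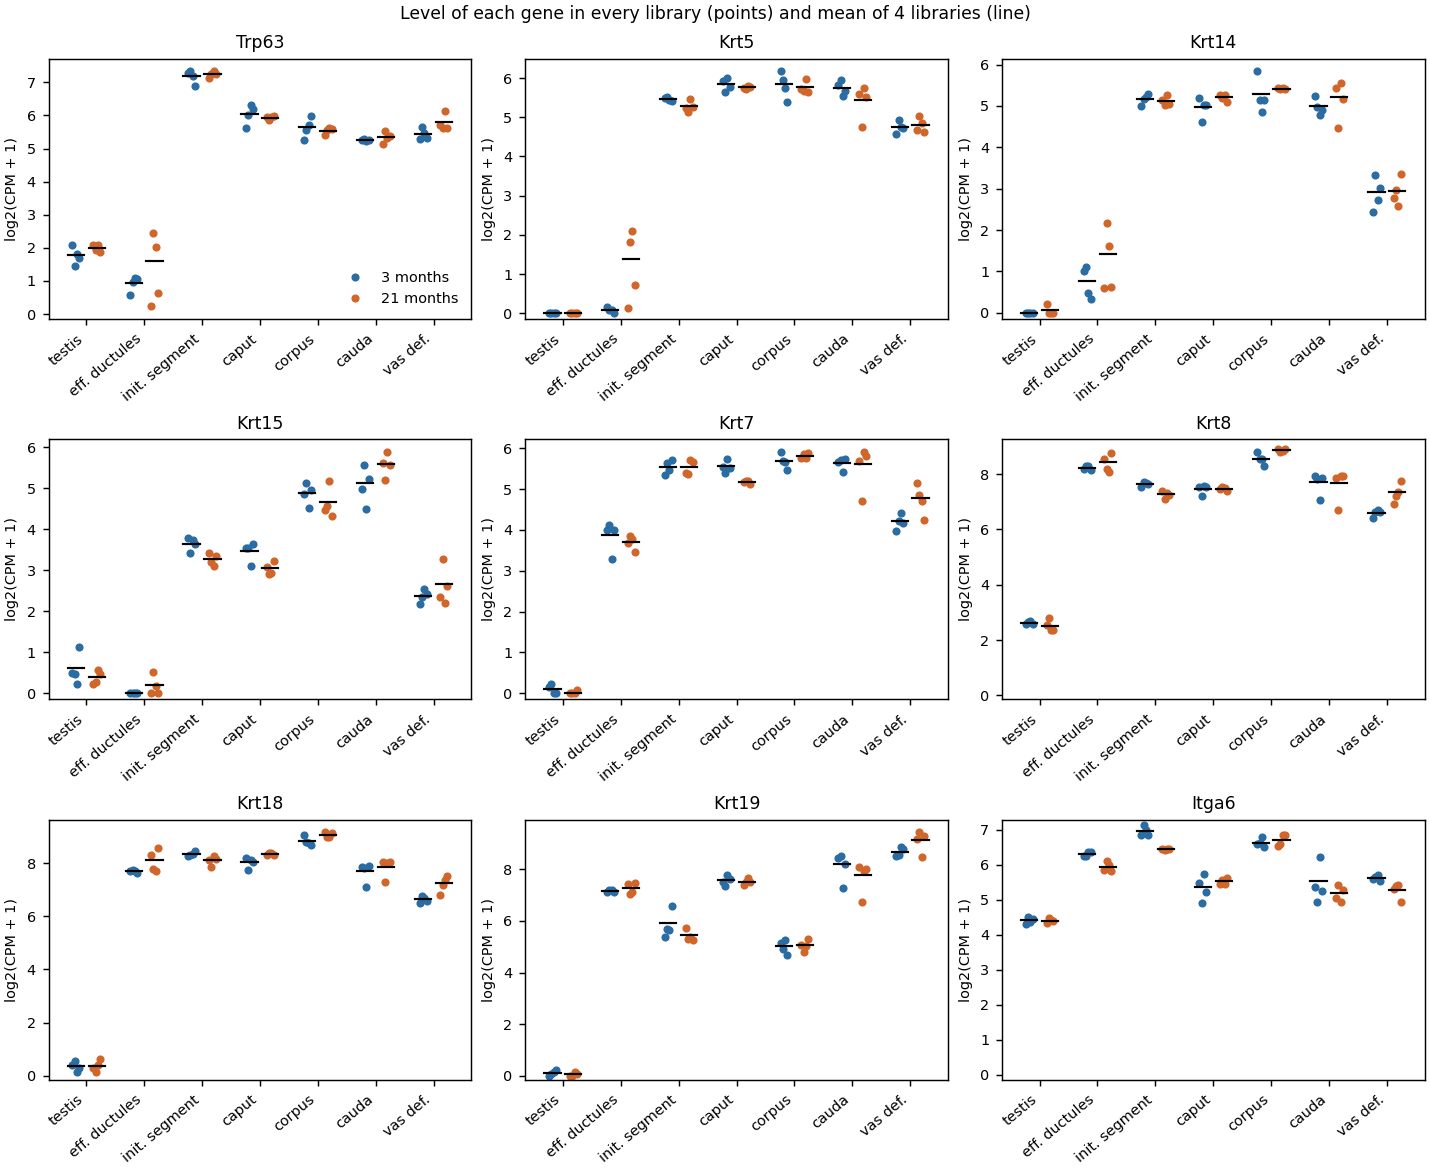
Levels of the 9 genes as log2(CPM + 1) on the vertical axis, in the 7 regions in anatomical order on the horizontal axis, with a point per library and a line at the mean of 4 libraries, at 3 and 21 months. Trp63, Krt5, Krt14 and Krt15 are near 0 in the efferent ductules and high in the initial segment, whereas Krt8, Krt18 and Krt19 are already high in the efferent ductules.

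The 4 luminal genes were higher in the efferent ductules than in the testis, as were Itga6 of the basal genes (1.99, SE 0.18, adjusted p = 4.16e-11) and, at low counts, Krt5 and Krt14. Krt18, the type I chain of simple epithelia, had 6, 9, 2 and 4 counts in the testis libraries of 3-month-old mice and was read at 205, 215, 208 and 199 CPM in the efferent ductules, a log2 difference of 9.47 (SE 0.22, adjusted p = 1.36e-24). Krt8, its partner, went from 5.04, 5.27, 5.46 and 4.94 CPM to 294, 315, 309.9 and 280.5 CPM, a log2 difference of 5.90 (SE 0.16, adjusted p = 1.70e-23). Both groups of libraries were tight and far apart. Krt19, a type I keratin of ducts, had 0, 1, 2 and 3 counts in the testis and 137, 144, 145 and 136 CPM in the efferent ductules (adjusted p = 5.22e-20). Krt7, a type II keratin of ducts and glands, had 2, 3, 0 and 0 counts in the testis and 15.0, 16.4, 8.81 and 14.9 CPM in the efferent ductules (adjusted p = 6.38e-18), and it was higher again in the initial segment, at 39.5, 49.0, 43.0 and 51.6 CPM. This step of Krt7 was 1.75 (SE 0.18, adjusted p = 1.10e-09) on the log2 scale, while Krt8 was lower there, with -0.56 (SE 0.12, adjusted p = 0.000360).

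Krt8 and Krt18 both had their highest levels in the corpus. Krt18 was read there at 531, 448, 435 and 412 CPM, after 293, 212, 274 and 265 CPM in the caput and before 228, 225, 138 and 234 CPM in the cauda. The corpus libraries lay above all caput and cauda libraries, with log2 differences of 0.72 (SE 0.13, adjusted p = 4.37e-05) and -1.22 (SE 0.13, adjusted p = 1.34e-08). Krt8 had 182, 147, 192 and 187 CPM in the caput, 451, 369.8, 374 and 309.9 CPM in the corpus and 245, 228, 133 and 229 CPM in the cauda. Again no corpus library overlapped its neighbours, and the steps were 1.0 (SE 0.12, adjusted p = 1.01e-07) and -0.93 (SE 0.12, adjusted p = 7.00e-07) on the log2 scale. Both genes were lower in the vas deferens than in the cauda, Krt8 at 96.0 ± 8.01 CPM (-0.97, SE 0.12, adjusted p = 1.93e-07) and Krt18 at 99.0 ± 8.39 CPM (-0.91, SE 0.13, adjusted p = 1.44e-06). In order of level, Krt8 ran corpus, efferent ductules, cauda, initial segment, caput, vas deferens and testis, with cauda and initial segment (adjusted p = 1.0) and initial segment and caput (adjusted p = 0.733) not separated. Krt18 ran corpus, initial segment, caput, efferent ductules, cauda, vas deferens and testis, with initial segment and caput (adjusted p = 0.234) and efferent ductules and cauda (adjusted p = 0.892) not separated.

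Although Krt8 and Krt18 partner in the filament and their genes are neighbours, their transcripts did not keep 1 ratio. Per kb of exon the ratio of Krt8 to Krt18 was 1.07 ± 0.0260 for the efferent ductules and 0.453 ± 0.0295 for the initial segment of 3-month-old mice, then 0.500 ± 0.0286 for the caput, 0.603 ± 0.0355 for the corpus, 0.739 ± 0.0374 for the cauda and 0.713 ± 0.0428 for the vas deferens (SD, n = 4). The libraries of the efferent ductules (1.04 to 1.10) and of the initial segment (0.417 to 0.483) did not overlap. At this boundary Krt18 had a log2 difference of 0.68 (SE 0.13, adjusted p = 5.91e-05), opposite in sign to that of Krt8, although the Krt18 call was lost with scaling by library size alone (0.30, adjusted p = 0.285). A ratio within a library does not depend on that scaling.

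Krt19 ran opposite to Krt18 among the ducts. It was lowest in the corpus, at 34.0, 28.7, 37.7 and 24.8 CPM, where Krt18 was highest, and highest in the vas deferens, at 367, 369.9, 459.9 and 433 CPM, where Krt18 was lowest. Between them it was read at 40.6, 50.1, 49.6 and 95.4 CPM in the initial segment, with replicate 4 above the others, at 181, 160.2, 219 and 198 CPM in the caput and at 345, 367, 154 and 296 CPM in the cauda. Its steps were 1.77 (SE 0.21, adjusted p = 1.07e-07) into the caput, -2.69 (SE 0.22, adjusted p = 3.46e-11) into the corpus and 3.14 (SE 0.23, adjusted p = 4.23e-12) into the cauda. The further step into the vas deferens (0.64, SE 0.21, adjusted p = 0.0143) lost its call without any of 11 single libraries (adjusted p = 0.0568 to 0.0989), cauda replicate 3 among them. Per kb of exon, the ratio of Krt19 to Krt18 was 0.0533 ± 0.00938 for the corpus, 1.07 ± 0.181 for the cauda and 3.20 ± 0.397 for the vas deferens (SD, n = 4). Over the 12 group means of the 6 ducts, on log2(CPM + 1) values, Krt18 and Krt19 had a Pearson correlation of -0.84, and Krt19 and Itga6 one of -0.87, given as a description, since the regions come from the same mice and the means of both genes share their libraries.

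**Figure D2:**
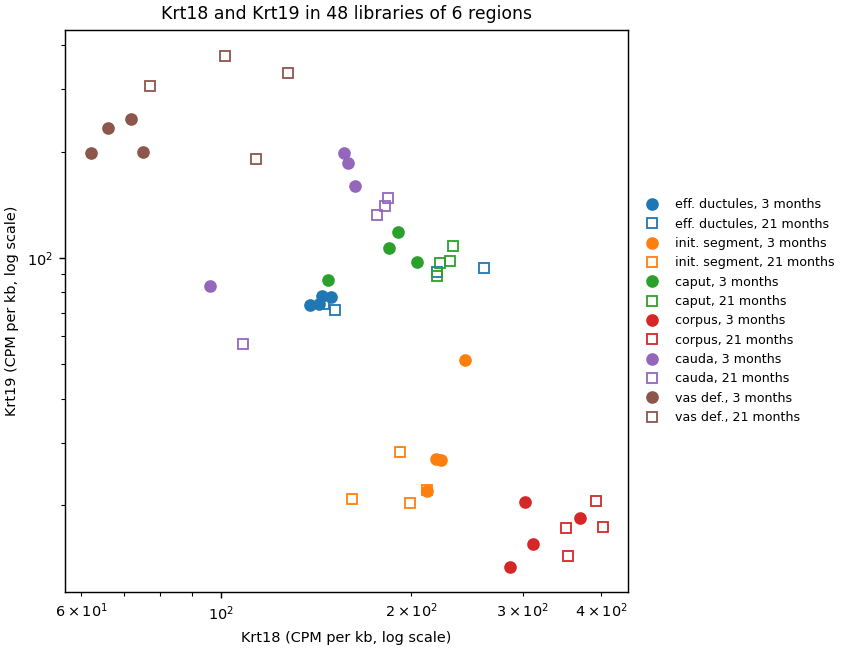
Krt18 against Krt19, both in CPM per kb of exon on log scales, with a point per library of the 6 ducts at 3 and 21 months. Corpus libraries have high Krt18 and low Krt19 and vas deferens libraries the reverse, with mean Krt19 to Krt18 ratios of 0.0533 and 3.20 at 3 months.

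Set side by side per kb of exon, Krt18 and Krt8 stood above the basal keratins in every duct. In the caput of 3-month-old mice the mean levels were 182 CPM per kb for Krt18, 102 for Krt19 and 90.4 for Krt8, then 25.7 for Krt5, 17.4 for Krt14, 7.82 for Trp63, 6.52 for Krt7, 5.70 for Krt15 and 4.49 for Itga6. In the vas deferens Krt19 led at 219.7 CPM per kb, followed by Krt18 at 68.9, Krt8 at 49.0 and Krt5 at 11.8. In the efferent ductules Krt8 and Krt18 were at 153 and 144 CPM per kb and Krt19 at 75.8, while Krt14, Trp63 and Krt5 were at 0.399, 0.108 and 0.0243. The ratio of Krt5 to Krt8, the type II chains of the 2 layers, was 0.285 ± 0.0186 in the caput and 0.132 ± 0.0133 in the corpus, the highest and the lowest mean of the 5 regions with basal genes at 3 months (SD, n = 4).

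Counted over the 6 steps between neighbouring regions at 3 months, 40 of 54 member steps were called, 22 higher and 18 lower in the later region. Neighbouring steps share a region, so their counts are not independent. From testis to efferent ductules 7 members were higher and 2 lower, against 34.8% and 40.8% of all genes tested. From efferent ductules to initial segment 7 were higher and 2 lower, with 19.7% and 23.7% of all genes, and with scaling by library size alone 5 were higher and 2 lower, Itga6 and Krt18 being lost. The step from initial segment to caput had 2 higher and 2 lower (15.0% and 12.8% of all genes), caput to corpus 4 and 2 (15.9% and 17.6%), corpus to cauda 1 and 4 (13.2% and 11.2%), and cauda to vas deferens 1 and 6 (15.1% and 21.3%). All 5 basal members were among the higher ones at the entry to the epididymis, with a median log2 difference of 7.34 against -0.06 over all genes, and all 4 luminal ones were higher at the exit from the testis, with a median of 8.50 against -0.08. The layers were not separate in these counts, since Krt5, Krt14 and Itga6 of the basal members were also called higher at the exit from the testis, and Krt7 and Krt18 of the luminal ones at the entry to the epididymis. The Krt5 call at the exit from the testis rested on 4 counts against 0 (adjusted p = 0.0272), with overlapping libraries.

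The libraries of 21-month-old mice, fitted separately, gave 34 called member steps of 54. Of these 32 were also called at 3 months, all 32 in the same direction, with 8 called at 3 months alone and 2 at 21 months alone. By step, 7 of 9 members were called from testis to efferent ductules (74.3% of all genes in either direction), 8 from efferent ductules to initial segment (44.6%), 3 into the caput (29.7%), 6 into the corpus (32.3%), 5 into the cauda (26.9%) and 5 into the vas deferens (35.1%). At the entry to the epididymis Trp63 had a log2 difference of 6.17 (SE 0.33, adjusted p = 5.11e-15) and Krt5 one of 4.52 (SE 0.35, adjusted p = 1.88e-11), with the 2 old efferent ductule libraries that held principal cell markers included. Without them the differences were 8.77 (adjusted p = 5.78e-20) and 6.77 (adjusted p = 6.89e-13), and 9 members were called from testis to efferent ductules, Trp63 and Krt15 being added. The libraries left out held most counts of Trp63, Krt5 and Krt15 in this group, so these changes were set in advance by that choice. Krt19 was again lower in the corpus than in the caput (-2.53, SE 0.23, adjusted p = 2.96e-10) and higher in the cauda than in the corpus (2.71, SE 0.23, adjusted p = 1.45e-10). The steps called at 21 months alone were Krt7 into the corpus (0.63, SE 0.19, adjusted p = 0.0106) and Krt15 into the cauda (0.86, SE 0.25, adjusted p = 0.00898), and a difference of these steps between ages was not tested.

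**Figure D3:**
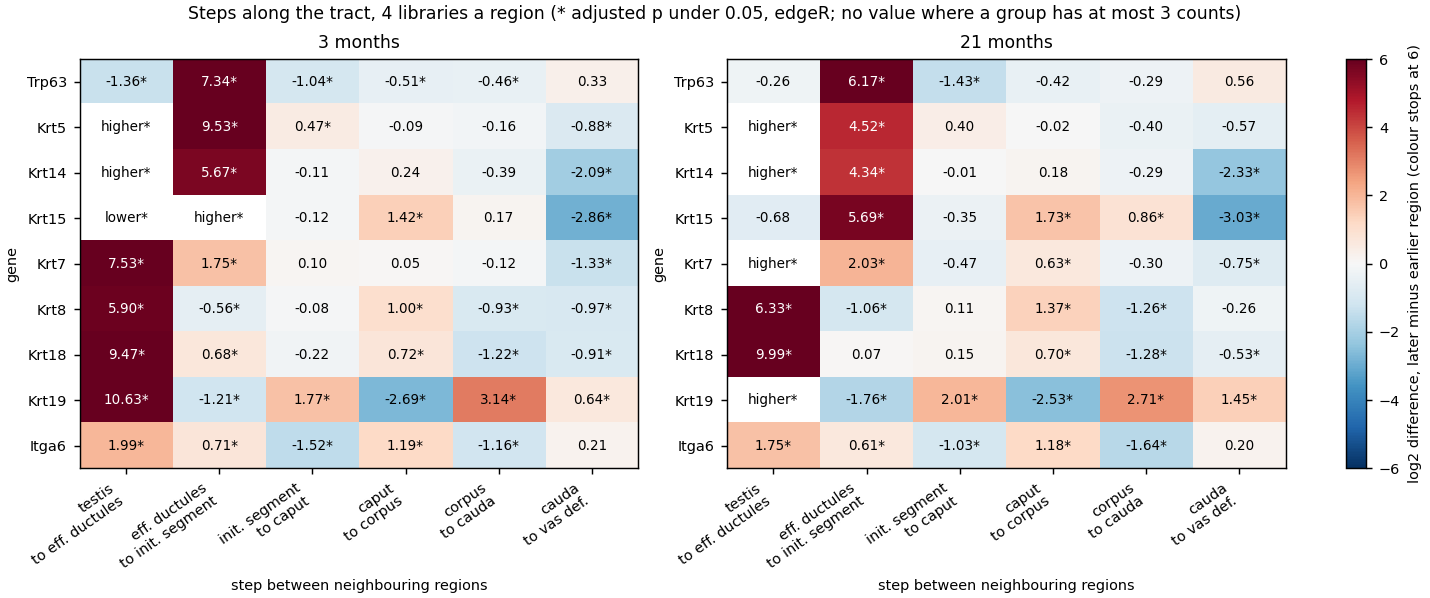
Log2 difference of each member (rows) at the 6 steps between neighbouring regions (columns), later minus earlier region, at 3 months and 21 months, with a star where the adjusted p was under 0.05. The column from efferent ductules to initial segment holds the basal rise at both ages, and Krt19 alternates in sign from caput to cauda.

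Partners of the members, from lists drawn up by name, changed in both directions at the entry to the epididymis. Of 12 hemidesmosome and basement membrane genes, 6 were higher and 4 lower in the initial segment than in the efferent ductules at 3 months (median log2 difference 0.36, all genes -0.06), where 19.7% of all genes were higher and 23.7% lower. Col17a1, the transmembrane collagen of the hemidesmosome, had 5.99, SE 0.23, adjusted p = 7.69e-19, Lamb3, a chain of laminin-332, had 2.41, SE 0.18, adjusted p = 1.70e-12, and Lama5, a laminin chain of many basement membranes, had -1.87, SE 0.15, adjusted p = 1.30e-11. Of 16 basal and p63-linked genes 15 were tested, 4 higher and 5 lower (median 0.13). Among them Pkp1, a desmosome plaque protein of stratified epithelia, had 5.18, SE 0.30, adjusted p = 4.39e-15, and Trp73, a p53 family gene known for multiciliated cells, had -4.31, SE 0.22, adjusted p = 2.00e-16. Of 19 other epidermal-type keratins 12 were tested, 3 higher and 2 lower (median -0.51), a share close to that of all genes, with called rises of Krt23 (mean 0.0400 to 207 CPM) and Krt17 (mean 0.0401 to 8.12 CPM), given without a fold since their efferent ductule levels were at the limit of counting. The broader epithelial list had 11 of 18 higher and 3 lower (median 0.87). In it Cldn4, a tight junction claudin, had 5.98, SE 0.23, adjusted p = 3.80e-19 and the transcription factor gene Grhl2 had 5.12, SE 0.15, adjusted p = 6.68e-22. Of 8 desmosome genes 3 were higher and 1 lower (median 0.15), the desmosomal cadherin gene Dsc2 at 6.59, SE 0.32, adjusted p = 1.24e-16 and Evpl, which links keratin to desmosomes, at -2.94, SE 0.18, adjusted p = 1.35e-14.

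The 3 genes whose pattern was most like that of each member were taken by Pearson correlation of log2(CPM + 1) over the 14 group means, among 24954 genes. For Trp63 they were 5830444B04Rik (0.978), Gm32255 (0.977) and Grhl2 (0.971). Krt5 was most like Slco4a1 (0.992), Tfap2a (0.985), the gene of an AP-2 factor, and Myo3b (0.985), and Krt14 was most like Rnase12 (0.986), Slc25a47 (0.986) and again Myo3b (0.978). Krt15 went with ENSMUSG00000091744 (0.985), Lactb (0.977) and Spink10 (0.975). Krt7 was most like Snd1 (0.994), Ss18l2 (0.988) and Armc10 (0.988), Krt8 most like Naa10 (0.991), Arrdc1 (0.988) and Grb7 (0.986), and Krt18 most like Anxa5 (0.994), Fam50a (0.994) and Tmem102 (0.992). For Krt19 the nearest were Blnk (0.972), Adgra2 (0.969) and Fam168b (0.969), and for Itga6 they included Fcgr2b (0.942) and 5830408C22Rik (0.935). The ranking depended on the measure. By Spearman's rank correlation over the same means, 2 of the 27 genes chosen were still among the first 3 and 14 among the first 100, with ranks down to 1624 (Myo3b for Krt5), while by Pearson correlation over the 56 libraries 18 were among the first 3. These correlations describe levels over shared libraries and carry no test. Among the members, over the 12 duct means, Trp63 with Krt5 stood at 0.92, Krt5 with Krt14 at 0.93, Krt8 with Krt18 at 0.77 and Krt14 with Krt7 at 0.96, whereas Krt7 with Krt8 stood at 0.0852.

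Between 3 and 21 months 6 of 59 tested pairs of member and region were called (10.2%), against 6.27% of 182073 gene and region pairs over all genes. Of the 63 pairs of member and region, 59 had at least 10 counts over the 8 libraries and were tested, and 3 were higher and 3 lower at 21 months. The 4 pairs left out were Krt5, Krt14, Krt7 and Krt19 in the testis. Each p is from edgeR's quasi-likelihood test of 4 against 4 libraries in a region, with Benjamini-Hochberg adjustment over all genes of that region. In the testis none of 5 members tested was called (smallest adjusted p = 0.588), where 0.353% of all genes were higher and 0.210% lower. In the corpus none of 9 was called (smallest adjusted p = 0.154), with 1.5% and 1.47% of all genes, but without 3-month-old replicate 1 Krt8 (0.41, adjusted p = 0.0156) and Krt18 (0.32, adjusted p = 0.0434) were. In the cauda none of 9 was called (smallest adjusted p = 0.475), with 0.0700% and 0.0583%.

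The vas deferens held 3 of the 6 calls, in a region where 11.4% of all genes were higher and 8.47% lower at 21 months. Krt8 was read at 84.3, 98.2, 102 and 99.2 CPM at 3 months and at 121, 145, 163 and 214 CPM at 21 months. Every old library lay above every young one, with a log2 fold change of 0.68, SE 0.15, adjusted p = 0.00962. Krt18 had 89.3, 108, 103 and 95.2 CPM at 3 months and 111, 146, 163 and 183 CPM at 21 months, also without overlap, with a log2 fold change of 0.54, SE 0.13, adjusted p = 0.0140. Itga6 went the other way, from 47.0, 48.6, 51.1 and 45.5 CPM to 38.4, 41.0, 41.4 and 29.8 CPM, again without overlap (-0.42, SE 0.10, adjusted p = 0.0134), but this call was lost without 3-month-old replicate 3 (adjusted p = 0.0512). The calls of Krt8 and Krt18 were kept with any 1 library left out.

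The other 6 members were not called in the vas deferens with all libraries, although Krt7 (0.67, adjusted p = 0.00640) and Trp63 (0.33, adjusted p = 0.0490) were called without old replicate 4 and Krt19 (0.59, adjusted p = 0.00738) without old replicate 3. Krt7 had 14.8, 17.7, 20.4 and 17.0 CPM at 3 months and 34.3, 28, 24.9 and 18.03 CPM at 21 months (0.53, SE 0.18, adjusted p = 0.0590), with 1 old library inside the young range. Krt19 was at 408 ± 46.5 and 558 ± 146 CPM (0.40, SE 0.19, adjusted p = 0.162) and Trp63 at 42.3 ± 5.01 and 54.3 ± 9.98 CPM (0.29, SE 0.11, adjusted p = 0.0826), as SD of n = 4. Krt5 was at 26.0 ± 2.68 and 26.9 ± 3.55 CPM (-0.01, SE 0.11, adjusted p = 0.955), Krt14 at 6.56 ± 2.02 and 6.70 ± 1.82 CPM (-0.02, SE 0.25, adjusted p = 0.969) and Krt15 at 4.20 ± 0.544 and 5.36 ± 2.27 CPM (0.30, SE 0.26, adjusted p = 0.466). The signs of Krt5 and Krt14 differ from those of their CPM means because of the scaling within the region.

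Markers of other cells differed in the same libraries of the vas deferens. The 8 T cell markers summed to 34.9, 21.3, 22.6 and 57.4 CPM at 21 months against 5.87 to 9.40 CPM at 3 months, and the 8 smooth muscle markers to 12986 to 21005 CPM against 12017 to 12689.8 CPM. The 7 seminal vesicle secretory genes summed to 489, 1930.2, 842 and 22.5 CPM against 3.13 to 4.86 CPM, and the 8 fibroblast markers to 1018 to 1488 CPM against 2192 to 2659.6 CPM. Old replicate 4, which had the highest Krt8 and Krt18, had the least of the seminal vesicle genes and the most of the T cell markers in its group. The 8 mesothelium markers, of a cell type that also carries simple keratins, summed to 181, 222, 151 and 94.8 CPM against 200.5 to 226 CPM. The ciliated cell markers summed to 38.6, 30.7, 40.2 and 33.5 CPM against 20.1 to 26.4 CPM, without overlap. The 8 endothelium markers summed to 133 to 195 CPM against 194 to 226 CPM. The part of these cells in the member changes was not tested.

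Among the partner lists, 3 of 8 desmosome genes rose in the old vas deferens and none fell (median log2 fold change 0.21, all genes 0.02), in the region where 11.4% of all genes were higher and 8.47% lower. They were Pkp2 (0.50, SE 0.10, adjusted p = 0.00759), Ppl (0.43, SE 0.07, adjusted p = 0.00274) and Jup (0.29, SE 0.07, adjusted p = 0.0190), all desmosome plaque proteins. Of the basal and p63-linked genes Sfn, an epithelial 14-3-3 protein, rose (1.35, SE 0.22, adjusted p = 0.00243), as did Cdh3, the P-cadherin of basal cells (0.46, SE 0.07, adjusted p = 0.00256). Of the other keratins Krt4 (1.62, SE 0.36, adjusted p = 0.0108) and Krt79 (1.46, SE 0.40, adjusted p = 0.0257) rose. The broader epithelial list had more falls than rises, with 3 of 18 genes lower and 1 higher (median 0.03). The tight junction genes Ocln (-0.56, SE 0.10, adjusted p = 0.00499) and Cldn7 (-0.37, SE 0.08, adjusted p = 0.00903) fell, as did Spint1, a protease inhibitor gene (-0.37, SE 0.08, adjusted p = 0.00811), while Epcam, an epithelial adhesion gene, rose (0.37, SE 0.11, adjusted p = 0.0341).

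In the initial segment Itga6 fell with age, where 3.35% of all genes were higher and 3.01% lower. It was read at 114, 140.0, 126 and 115 CPM at 3 months and at 86.9, 84.2, 87.2 and 86.6 CPM at 21 months, without overlap. The log2 fold change was -0.38, SE 0.06, adjusted p = 0.00315, a call kept with any 1 library left out. Markers of other cells were lower in the same old libraries without overlap, the endothelium markers at 187 to 213 CPM against 228 to 315 CPM, the smooth muscle markers at 1937 to 2312 against 2761 to 3219 CPM and the fibroblast markers at 694 to 848 against 1068 to 1683 CPM. The macrophage markers, at 248 to 305 against 219 to 238 CPM, and the T cell markers, at 8.69 to 11.8 against 5.36 to 6.16 CPM, were higher without overlap. Principal cell markers (46579 to 46935 against 51102 to 60815 CPM), clear cell markers (131 to 170 against 175 to 203 CPM) and germ cell markers (28.1 to 53.4 against 54.2 to 138 CPM) were also lower in CPM, but these 3 overlapped with the scaling of the fits. The part of these cells in the Itga6 difference was not tested. The hemidesmosome list had a median log2 fold change of -0.11 there against -0.01 over all genes. Fermt1, an integrin-binding protein (-0.91, SE 0.15, adjusted p = 0.00228), Cdh3 (-0.27, SE 0.08, adjusted p = 0.0479) and Krt17 (-0.81, SE 0.16, adjusted p = 0.00816) were lower. Krt8 had 184, 207, 205 and 198 CPM at 3 months and 166, 138, 160.0 and 150.4 CPM at 21 months. These libraries did not overlap, yet the difference missed the threshold (-0.23, SE 0.07, adjusted p = 0.0560). Trp63, at 145 ± 19.9 and 151 ± 8.53 CPM, and Krt14, at 35.1 ± 2.91 and 33.9 ± 2.77 CPM (SD, n = 4), overlapped between ages.

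In the caput 3.09% of all genes were higher and 5.05% lower at 21 months. Krt7 had 45.6, 41.4, 52.2 and 44.6 CPM at 3 months and 35.2, 35.99, 35.8 and 34.1 CPM at 21 months, without overlap (-0.44, SE 0.10, adjusted p = 0.0188). The call was lost without 3-month-old replicate 3 (adjusted p = 0.0520) and without each of the 4 libraries of 21-month-old mice (adjusted p = 0.0505 to 0.0699). It was also lost with libraries scaled by their size alone (-0.22, adjusted p = 0.831), a scaling that moved the median of all genes in the caput by 0.196 on the log2 scale. Krt18, with 293, 212, 274 and 265 CPM against 316, 330.4, 335 and 319 CPM, did not overlap either but was not called (0.27, SE 0.09, adjusted p = 0.0935). It was called without 3-month-old replicate 1 (0.29, adjusted p = 0.0207), as was Trp63 (-0.34, adjusted p = 0.00628), and Krt15 was called without 3-month-old replicate 3 (-0.65, adjusted p = 0.0353). Markers of other cells differed between the ages of the caput without overlap. Macrophage markers summed to 185 to 220 CPM at 21 months against 141 to 149 CPM, T cell markers to 9.07 to 15.3 against 2.77 to 5.82 CPM and mesothelium markers to 55.7 to 69.3 against 36.7 to 52.3 CPM. Smooth muscle markers instead summed to 827 to 967 against 1149 to 1514 CPM and fibroblast markers to 499.8 to 566 against 732 to 1587 CPM. Germ cell markers (99.8 to 110 against 115 to 150 CPM) and Sertoli cell markers (77.4 to 99.2 against 115 to 136 CPM) were also lower. Their part in the member differences was not tested. The ratio of Krt8 to Krt18 per kb was 0.500 ± 0.0286 at 3 months and 0.400 ± 0.00936 at 21 months (SD, n = 4), with library ranges of 0.457 to 0.517 and 0.388 to 0.409.

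**Figure D4:**
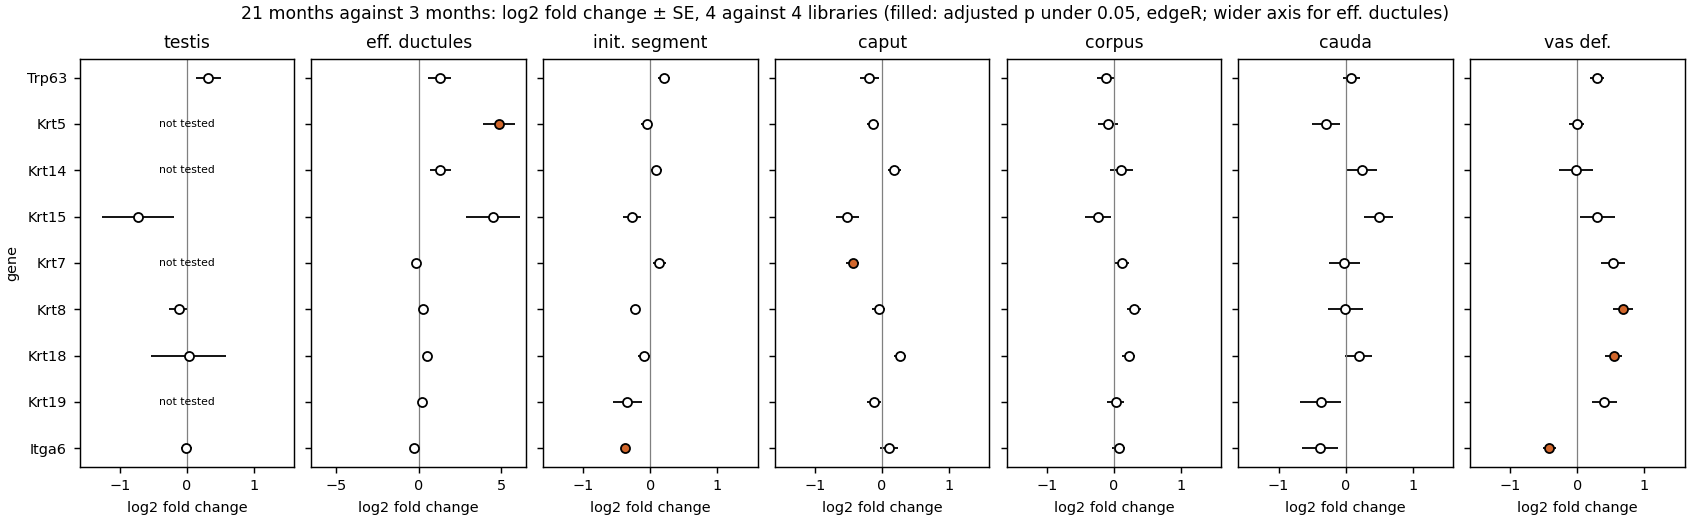
Log2 fold change from 3 to 21 months with its SE for each gene in the 7 regions, 4 against 4 libraries, filled where the adjusted p was under 0.05. The 6 filled points are Krt5 in the efferent ductules, Itga6 in the initial segment, Krt7 in the caput, and Krt8, Krt18 and Itga6 in the vas deferens.

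In the efferent ductules the Krt5 call with age rested on few libraries. Krt5 had 2, 1, 1 and 0 counts at 3 months and 1, 46, 53 and 7 counts at 21 months, a fitted log2 fold change of 4.86, SE 0.98, adjusted p = 0.0197, in a region where 4.00% of all genes were higher and 2.98% lower. Of the old libraries 2 were high, 1 was intermediate and 1 lay within the young range. Trp63 was high in the same old libraries, replicates 2 and 3, with 81 and 50 counts against 2 and 6 in replicates 1 and 4 and 9 to 21 at 3 months. Krt14 had 63 and 34 counts there, against 6 and 6 and 5 to 22 at 3 months, and Krt15 had 8 and 2 counts and none in the other 6 libraries. These were the libraries with epididymal principal cell markers.

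Against the mean of the initial segment at the same age, replicates 2 and 3 held 5.84% and 2.21% of its Lcn8, a lipocalin gene of principal cells, and 2.96% and 2.03% of its Trp63, 6.72% and 8.60% of its Krt5, 10.3% and 6.15% of its Krt14 and 5.10% and 1.42% of its Krt15. Replicates 1 and 4 held 0.00128% and 0.00398% of its Lcn8 and 0.232% and 1.68% of its Krt5. Without replicates 2 and 3, Krt5 was not called (2.73, adjusted p = 0.0854), and it was also lost without any 1 of the 4 libraries of 3-month-old mice (adjusted p = 0.0559 to 0.0766). The signs of Trp63 (1.28 to -1.18, adjusted p = 0.276 and 0.169) and Krt14 (1.32 to -0.25, adjusted p = 0.229 and 0.826) turned without these libraries, with no call either way. The part of epididymal tissue in these values was not tested.

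**Figure D5:**
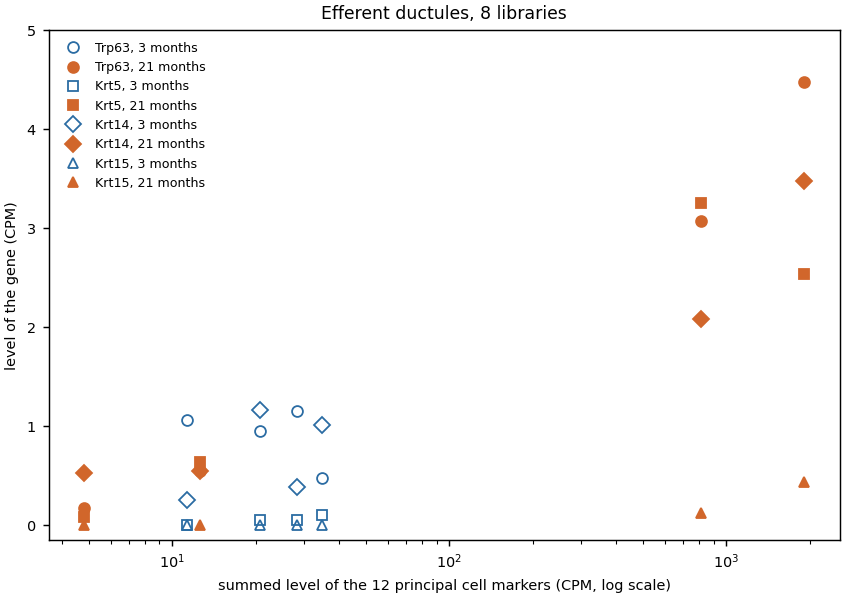
Levels of Trp63, Krt5, Krt14 and Krt15 in CPM (vertical axis) against the summed level of 12 principal cell markers in CPM (horizontal axis) in the 8 efferent ductule libraries. The 2 libraries with marker sums of 811 and 1901 CPM hold the highest values of all 4 genes.

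Without the same libraries Krt8, Krt18 and Krt19 of the efferent ductules were called higher with age, while Krt7 was not called (-0.20, adjusted p = 0.614), where 13.4% of all genes were then higher and 13.7% lower. Krt18 was read at 205, 215, 208 and 199 CPM at 3 months and 316, 218, 209 and 374 CPM at 21 months, so that the old libraries left out were those near the young level. With all 8 libraries its log2 fold change was 0.52, SE 0.19, adjusted p = 0.131, and without replicates 2 and 3 it was 0.88 (adjusted p = 4.51e-05). Krt8, at 294, 315, 309.9 and 280.5 CPM against 378, 288, 267 and 437 CPM, went from 0.27 (adjusted p = 0.344) to 0.58 (adjusted p = 0.000365), and Krt19 from 0.21 (adjusted p = 0.358) to 0.43 (adjusted p = 0.00119). Itga6, at 74.9, 74.4, 80.9 and 80.8 CPM against 56.1, 67.9, 62.0 and 55.99 CPM, did not overlap between ages and went from -0.29 (adjusted p = 0.0856) to -0.33 (adjusted p = 0.0107). The old libraries that remained, replicates 1 and 4, had the lowest totals of the series (11442133 and 11125279 counts), and Gm42418 took 22.2% and 18.5% of them against 1.27% to 3.29% at 3 months. They also held 673 and 494 CPM of macrophage markers against 355 to 385 CPM, 273 and 248 CPM of endothelium markers against 342 to 382 CPM and 1566 and 1391 CPM of fibroblast markers against 2664 to 3716 CPM, and the part of these differences in the calls was not tested.

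In the cauda 3 members were called when 3-month-old replicate 3 and 21-month-old replicate 2 were left out, against 2.06% of all genes higher and 2.69% lower. Krt15, at 30.9, 46.8, 21.6 and 36.7 CPM at 3 months and 48.1, 35.96, 58.6 and 46.2 CPM at 21 months, then had 0.46 (adjusted p = 0.0498) and Krt18 had 0.22 (adjusted p = 0.0470). Krt19, at 345, 367, 154 and 296 CPM and 274, 106, 245 and 259.5 CPM, had -0.33 (adjusted p = 0.0236), and the libraries left out were its lowest in each group. In the libraries kept, markers of other cells also differed between ages without overlap in CPM. At 21 months fibroblast (1055 to 1202 against 2284 to 2541 CPM), smooth muscle (4120 to 4621 against 6110 to 7303 CPM), mesothelium (55.8 to 63.5 against 81.0 to 86.8 CPM) and clear cell markers (131 to 157 against 175 to 181 CPM) were lower. T cell markers (13.1 to 19.6 against 6.38 to 11.4 CPM) were higher. Their part in these calls was not tested. The ratio of Krt5 to Krt14 per kb in the cauda was 1.38 ± 0.165 at 3 months and 0.956 ± 0.0588 at 21 months (SD, n = 4), with library ranges of 1.19 to 1.595 and 0.897 to 1.02 that did not overlap.

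Whether the age effect differed between regions was tested in 1 edgeR quasi-likelihood fit of the 56 libraries. It was called for 4 of the 9 members, where 20.2% of all genes were called, namely Krt5 (adjusted p = 1.45e-05), Krt8 (adjusted p = 0.0128), Krt15 (adjusted p = 0.0163) and Krt7 (adjusted p = 0.0467). For Krt8 the log2 fold change with age ran from -0.23 in the initial segment to 0.68 in the vas deferens. The calls of Krt5 (adjusted p = 0.129) and Krt15 (adjusted p = 0.0904) were lost without replicates 2 and 3 of the old efferent ductules. Krt8 lost its call without 3-month-old caput replicate 2 (adjusted p = 0.0525). It also lost it with scaling by library size alone (adjusted p = 0.248) and without the testis (adjusted p = 0.0515). Krt7 lost its call in 7 of the other settings tried. Itga6 (adjusted p = 0.0640), Trp63 (adjusted p = 0.106), Krt18 (adjusted p = 0.121), Krt19 (adjusted p = 0.189) and Krt14 (adjusted p = 0.253) were not called.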

How the data were processed

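Total RNA libraries (TruSeq Stranded Total RNA kit, paired-end) of 7 regions at 3 and 21 months, 4 libraries per group, were compared. The authors trimmed reads with cutadapt, aligned them with HISAT2 to mm10 and counted them per gene with HTSeq, with versions, annotation release and strand setting not given in the sources used here, and the deposited values are whole-number read counts per gene, not normalized. Libraries held 11125279 to 20561967 counts, and genes near 10 counts over the libraries compared are read with large counting error. Identifiers were matched to symbols, positions and exonic lengths in GENCODE M21.

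From the counts, edgeR 4.0.16 (R 4.3.3) was run with TMM scaling on genes with at least 10 counts over the libraries of a fit, using the quasi-likelihood test with Benjamini-Hochberg adjustment over all genes tested, and an adjusted p under 0.05 was called. Age was fitted within each region (8 libraries), regional steps within each age (28 libraries) and the region by age interaction over 56 libraries. The scripts were tested on simulated counts. CPM, ratios and correlations were computed with python 3.11.15, pandas 2.3.3 and numpy 2.4.6, and figures with matplotlib 3.10.9. Alternatives were DESeq2 1.42.0, other scalings and filters, a block on the replicate number, and left-out libraries.

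The text names the 9 members, for each the 3 genes most alike among genes with a mean of at least 1 CPM in a group, and at most 3 called genes per list with the largest fold change. Some genes that this rule names are not reported here. The members, the 20 gene lists and the rule were chosen with earlier results of these data known. Nothing says which libraries of different regions share a mouse, so p-values measure the spread between libraries of 4 mice. Labels give TRIzol extraction and the methods an RNeasy kit, and mice came from 2 suppliers not tied to an age in the sources used here, so supplier and age cannot be told apart. Each sample's group was read from its label, and no sample was left out of the comparisons as first fitted.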

Additional observations from a re-analysis of the deposited data

Results flagged for a closer look

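In 8 of 122 groups of 4 libraries (6.56%) the highest or lowest library stood apart by Dixon's criterion (the gap to the nearest library over the range of the group), where chance flags about 1 in 20 groups. In 5 of the 8, the library was 1 of the 2 cauda libraries described above. Replicate 3 of the 3-month-old cauda was low in Krt8, at 133 CPM against 228 to 245 CPM (gap over range 0.846), and in Krt18, at 138 CPM against 225 to 234 CPM (gap over range 0.905). Replicate 2 of the 21-month-old cauda was low in Krt8, at 104 CPM against 234 to 243 CPM (gap over range 0.93), in Krt18, at 155 CPM against 253 to 264 CPM (gap over range 0.905), and in Krt19, at 106 CPM against 245 to 274 CPM (gap over range 0.832). Replicate 3 of the 21-month-old vas deferens was high in Trp63, at 69.2 CPM against 48.5 to 50.9 CPM (gap over range 0.886). In the testis at 21 months, replicate 1 held the only counts of Krt14 (0.164 CPM, gap over range 1) and replicate 4 the only count of Krt7 (0.0551 CPM, gap over range 1), levels at the limit of counting.

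The effect of age differed between regions for 4 members by the interaction term of edgeR's quasi-likelihood test, with adjusted p = 1.45e-05 for Krt5, 0.0128 for Krt8, 0.0163 for Krt15 and 0.0467 for Krt7, where 20.2% of all genes were called. Without replicates 2 and 3 of the old efferent ductules Krt5 (adjusted p = 0.129) and Krt15 (adjusted p = 0.0904) were not called. Krt8 was not called without 3-month-old caput replicate 2 (adjusted p = 0.0525), with scaling by library size alone (adjusted p = 0.248) or without the testis (adjusted p = 0.0515). Krt7 was not called with the replicate number as a block (adjusted p = 0.0658). The log2 fold changes with age ran from -0.23 (initial segment) to 0.68 (vas deferens) for Krt8 and from -0.44 (caput) to 0.53 (vas deferens) for Krt7. The part of the marker genes of other cells in these differences was not tested.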

How the results depend on the processing

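No called value of a member changed sign under any setting run. The count of pairs of member and region higher at 21 months, 3, was 5 with DESeq2, 5 without 21-month-old efferent ductule replicates 2 and 3, 5 without 3-month-old cauda replicate 3 and 21-month-old cauda replicate 2, 7 in 1 fit of all 56 libraries, and 2 to 5 with single libraries left out (5 without 3-month-old corpus replicate 1 or without 21-month-old vas deferens replicate 4). The count of pairs lower, 3, was 5 with DESeq2, 1 in the fit of 56 libraries, 0 at an unadjusted p under 0.05 with at least 1.5-fold, and 2 to 4 with single libraries left out. DESeq2 added Itga6 in the efferent ductules (-0.26, adjusted p = 0.0194), Krt8 in the initial segment (-0.22, adjusted p = 0.0284), Krt18 in the caput (0.26, adjusted p = 0.0168) and Krt7 in the vas deferens (0.54, adjusted p = 0.0289). With single libraries left out, the regional steps gave 20 to 23 higher and 16 to 18 lower at 3 months (22 and 18 with all libraries) and 33 to 37 called at 21 months (34 with all libraries). The interaction was called for 4 members, for 2 with scaling by library size alone, for 2 without the testis and for 2 to 5 with single libraries left out (2 without 3-month-old caput replicate 2). The single libraries were left out of the interaction fit for 12 of the 56 libraries, the other 44 not being run. Among single results, 47 of 56 age values, 769 of 792 steps and 81 of 99 interaction values stayed on their side of the threshold with the same direction under the other settings. The cause of these changes was not tested.

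Libraries of the same replicate number did not deviate together, which cannot tell whether the numbers mark mice. The mean correlation of same-numbered libraries' deviations was 0.0359 between regions at 3 months and 0.00469 at 21 months, and 1 of 21 and 0 of 21 pairs of regions had all 4 correlations above 0.1. With the replicate number as a block the counts were 3 higher and 3 lower with age, 22 higher and 18 lower steps at 3 months, 34 called steps at 21 months and 4 interactions, among which Krt7 was lost (adjusted p = 0.0658) and Itga6 gained (adjusted p = 0.0379). Low counts limit Krt5, Krt14, Krt15 and Trp63 in the efferent ductules and all keratins but Krt8 in the testis, where calls can rest on a few counts.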

Other observations

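Genes that share structures with the members also changed with age outside the vas deferens and initial segment. In the efferent ductules 4 of 18 broader epithelial genes rose and none fell (median log2 fold change 0.22, all genes -0.04; 4.00% of all genes rose and 2.98% fell), among them Cldn4 (1.77, SE 0.46, adjusted p = 0.0463), Cldn3 (0.75, SE 0.13, adjusted p = 0.0133) and Rab25 (0.57, SE 0.10, adjusted p = 0.0138). Without the 2 old libraries that held principal cell markers Cldn4 was not called (0.60, adjusted p = 0.210), Cldn3 (0.63, adjusted p = 0.00358) and Rab25 (0.68, adjusted p = 0.000442) were, and of 17 genes of this list tested 4 rose and 2 fell, against 13.4% and 13.7% of all genes. Of the desmosome list Jup, plakoglobin, rose there (0.82, SE 0.16, adjusted p = 0.0182), of the hemidesmosome list Lamb3 rose (1.36, SE 0.23, adjusted p = 0.0121), and of the basal and p63-linked list Egfr, the epidermal growth factor receptor, fell (-0.52, SE 0.09, adjusted p = 0.0131). Without the same libraries the hemidesmosome list had 3 higher and 3 lower of 12 (median -0.21), the desmosome list 2 higher and 1 lower of 8 (median 0.04) and the basal and p63-linked list 0 higher and 3 lower of 15 (median -0.02), against a median of -0.09 over all genes. The 3 calls named were also made then (Jup 0.58, adjusted p = 0.00181, Lamb3 1.40, adjusted p = 0.00263, and Egfr -0.44, adjusted p = 0.000970). In the caput Cdh3 (-0.59, SE 0.13, adjusted p = 0.0178), Cldn3 (-0.66, SE 0.11, adjusted p = 0.00570) and Ppl (-0.66, SE 0.16, adjusted p = 0.0229) fell, and Perp, a desmosome-associated protein (0.52, SE 0.12, adjusted p = 0.0188), and Prom1 (0.49, SE 0.12, adjusted p = 0.0260) rose. In the corpus Evpl rose (0.88, SE 0.17, adjusted p = 0.00790), the only call there among the 5 partner lists. In the testis and the cauda these lists gave no call by edgeR's quasi-likelihood test.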
